A study of Mus musculus with 10 samples.

Results

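A set of 10 genes of Wnt signalling and pericentral zonation was followed in mouse liver, out of 29657 genes in the deposited table, by their gene symbols: the ligand gene Rspo3, the receptor gene Lgr5, the receptor-clearing ligase genes Rnf43 and Znrf3, the scaffold gene Axin2, the transcription factor genes Tcf7l2 and Tbx3, and the pericentral genes Oat, Rhbg and Slc1a2. All 10 were found. The liver RNA came from 10 C57BL/6 mice fed CDAHFD for 8 weeks. This diet, rich in fat, poor in choline and with L-amino acids in place of protein, is used as a model of steatohepatitis. The 5 control mice were wild type and received AAV8-NC, the control virus of the study, an adeno-associated vector. The 5 others received AAV8-TBG-galectin-3, labelled a hepatocyte-specific knockdown of galectin-3; TBG is a promoter that works in hepatocytes, and what the vector carries behind it is not stated. Both groups had the diet and a virus, so neither shows a liver on normal food. Nothing in the labels pairs a mouse of the first group with a mouse of the second. The p-values of the group comparison set its difference against the spread between libraries of the same group, for these 10 libraries.

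Wnt ligands reach hepatocytes from the endothelium of the central vein. They bind Frizzled and Lrp5 or Lrp6, which keeps beta-catenin from being degraded, and beta-catenin then acts with T-cell factors such as Tcf7l2 on genes of the hepatocytes around that vein. R-spondins bind Lgr receptors and take the ligases Rnf43 and Znrf3 off the membrane, which leaves more Frizzled in place. Axin2, Lgr5, Tbx3, Rnf43 and Znrf3 are themselves known targets, and several of them restrain the pathway as feedback. Around the portal vein hepatocytes carry other enzymes, among them those of urea synthesis.

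Expression was given as FPKM, which scales fragments by transcript length and by library size, so levels of different genes can be set side by side. A library held 21653 to 23079 genes above 0. No regular step that could stand for 1 fragment was found: with the best step of each library, 6.40 to 7.90% of its low values (up to 10 steps) fell within 0.02 of a whole number of steps. The depth of the libraries is therefore unknown. Lgals3, the targeted gene, averaged 70.8 ± 22.9 FPKM over the controls and 74.2 ± 20.1 FPKM in the others (SD, n = 5; limma adjusted p = 0.856). The second group is therefore called labelled knockdown, and every direction rests on the labels. The hepatocyte transcripts Apob and Hnf4a were abundant in all libraries, at no less than 183 and 61.9 FPKM. Per doubling of transcript length, a control library departed from the gene mean by 0.02 to 0.05 on the log2(FPKM + 1) scale, and a labelled knockdown library by -0.06 to -0.01. The part of this length trend in the results was tested only by removing it.

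None of the 10 genes differed between the groups at a limma adjusted p under 0.05. Of the 13471 genes tested, 7.13% passed as higher in labelled knockdown and 9.65% as lower, together 16.8%, and the count of 0 members of 10 is to be read against that share. At an unadjusted p under 0.05 there were 2 members, Lgr5 and Tcf7l2, where 33.5% of all tested genes passed. The groups overlapped for all 10 members, while 13.1% of tested genes did not overlap. Log2 fold changes of the members had a median of 0.17, with 7 above 0 and 3 below, beside a median of -0.04 over all tested genes. That tilt rested on control 5: without it, 5 members were above 0 and 5 below, with a median of -0.014. Lgr5 alone had a q-value under 0.05 in the authors' deposited table (0.0164), where 8.84% of its genes did, and none of the 10 carried the mark of significance, which 1.34% of its genes had.

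**Figure D1:**
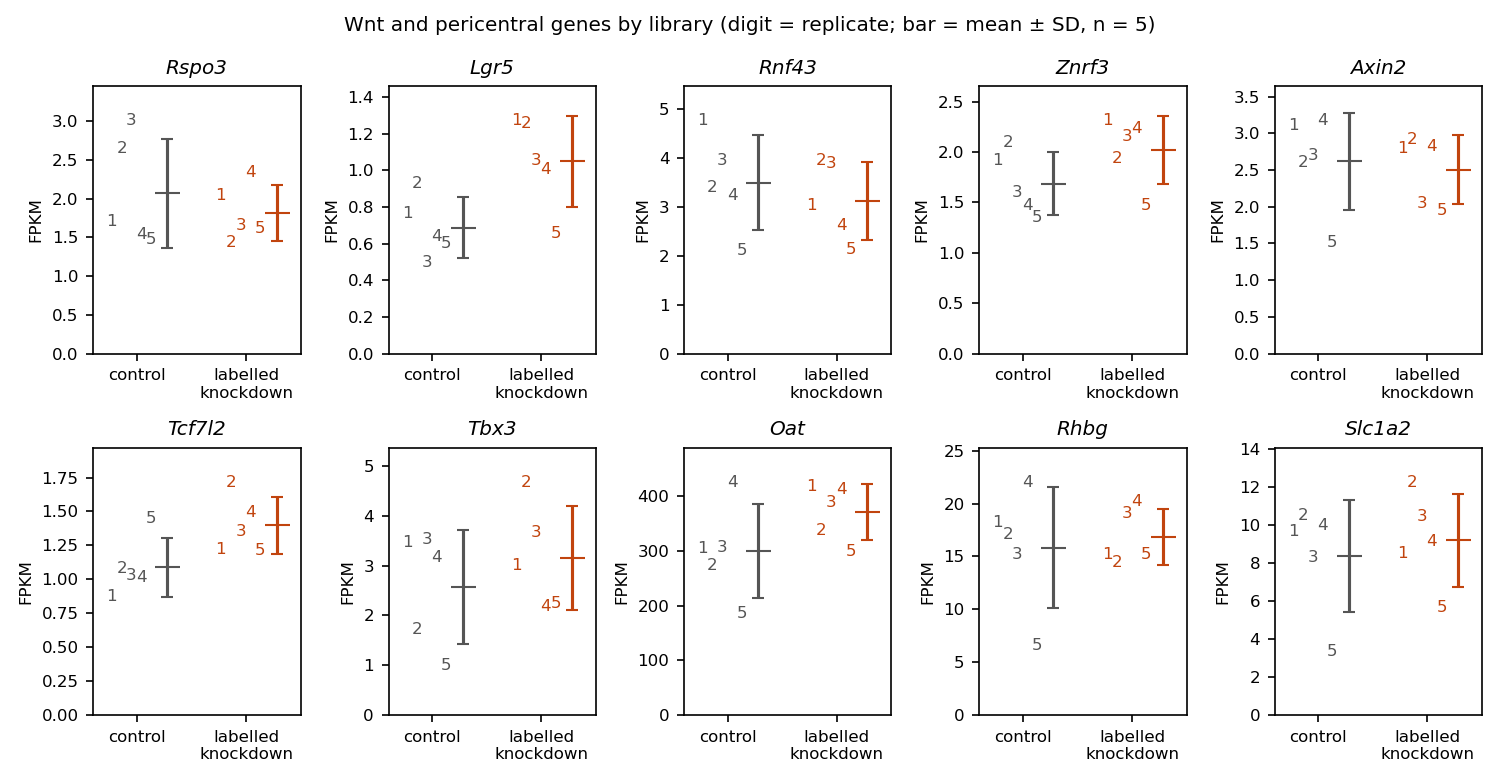
FPKM of the 10 genes in each library, on linear axes that start at 0. Digits are the replicate numbers of the 5 control and 5 labelled knockdown libraries, and bars give mean ± SD. The groups overlap in every panel, and control 5 is the lowest of all 10 libraries for 7 genes.

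By level, Oat stood alone, between 186 and 426 FPKM in all libraries. Rhbg (mean 16.3 FPKM over the 10 libraries) and Slc1a2 (8.78) came next. Rnf43 (3.31), Tbx3 (2.86), Axin2 (2.56), Rspo3 (1.95), Znrf3 (1.85), Tcf7l2 (1.24) and Lgr5 (0.868) followed. From Rhbg downwards, the range of each gene over the libraries overlapped that of the next, so only the step from Oat to Rhbg exceeded the spread. Lgr5 lay close to the minimum of 0.5 FPKM in 5 libraries used to keep a gene, which all 10 members met.

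Rspo3, whose product is the R-spondin that central vein endothelium and stellate cells supply, held 1.70, 2.65, 3.01, 1.54 and 1.48 FPKM in control libraries 1 to 5 and 2.04, 1.44, 1.66, 2.33 and 1.62 FPKM in labelled knockdown libraries 1 to 5. Controls 2 and 3 were above every labelled knockdown library, and the other controls lay among them. Its log2 fold change of -0.11 (SE 0.15, limma adjusted p = 0.651) had a 95% interval from 0.742-fold to 1.16-fold on the FPKM + 1 scale. All log2 fold changes and fold intervals from limma given for the genes here are on this scale. It understates the change of genes at a few FPKM, so these intervals are not intervals of the FPKM ratio. Wnt2 and Wnt9b, the ligand genes of that endothelium, were chosen for mention after their values were seen. Wnt2 ranged from 0.125 to 0.626 FPKM and Wnt9b from 0.0440 to 0.110 FPKM over the 10 libraries, both too low to be tested. Of 21 genes in a list of Wnt ligands and their secretion machinery, 17 were in the table and 4 were tested. None of the 4 passed in either direction, among them Wls, which carries Wnt proteins to the membrane (1.43 ± 0.395 against 0.956 ± 0.264 FPKM, adjusted p = 0.116), and Wnt5b (0.898 ± 0.226 against 1.07 ± 0.153 FPKM, 0.357).

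Markers of the cells that make these ligands were counted beside the 9.65% of all tested genes that were lower. Of 11 tested endothelial markers, 1 was lower and 0 were higher, a share near that of all genes: Pecam1, which encodes a junction protein, fell from 1.14 ± 0.212 to 0.737 ± 0.154 FPKM (limma adjusted p = 0.0445), and was called in only 2 of 10 fits that left out 1 library. Of 3 tested markers of central vein endothelium, Rspo3 itself among them, 1 was lower. This was Thbd, which encodes thrombomodulin (0.932 ± 0.201 to 0.477 ± 0.166 FPKM, adjusted p = 0.0267), called in 4 of those fits. Both calls were lost with a replicate block (adjusted p = 0.0881 for Pecam1 and 0.0527 for Thbd) and after the length trend was removed (0.121 and 0.0757). Without a filter on low values both were lost as well (0.104 and 0.0643). That of Pecam1 was also lost with median-of-ratios scaling (0.0530) and quantile normalization (0.0543). Of the 11 endothelial markers, 10 had a log2 fold change below 0 and 1 above, with a median of -0.27, beside -0.04 over all tested genes. After the length trend was removed, 9 were below 0 and 2 above, with a median of -0.17, beside 0.004. The 3 central vein markers were all below 0 in the main fit, with a median of -0.11. The endothelial list summed to 22.3 to 41.6 FPKM in the control libraries and to 19.9 to 28.1 FPKM in the labelled knockdown libraries. Of 14 stellate cell and myofibroblast markers, 4 were lower and 0 higher, among them Reln (2.59 ± 0.309 to 1.72 ± 0.258 FPKM, adjusted p = 0.0159), and that list summed to 129 to 154 and to 72.5 to 147 FPKM. The count of 4 became 6 with a replicate block, 2 after the length trend was removed and 1 to 6 without 1 library (1 without control 1, 3 or 4 or labelled knockdown 2 or 3, 2 without control 2 or labelled knockdown 1 or 5, and 6 without labelled knockdown 4). No marker of these lists was at 0 in all libraries. In bulk liver, fewer cells of a type and less RNA per cell cannot be told apart, and the part of these cells in the Rspo3 values was not tested.

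Lgr5, the R-spondin receptor of pericentral hepatocytes, came closest to a call. It held 0.765, 0.930, 0.496, 0.638 and 0.603 FPKM in control libraries 1 to 5 and 1.27, 1.26, 1.05, 1.01 and 0.657 FPKM in labelled knockdown libraries 1 to 5. The first 4 labelled knockdown libraries were above every control, and the last lay inside the control range. Means were 0.686 ± 0.167 and 1.05 ± 0.249 FPKM (SD, n = 5), a ratio of 1.53. That gave a log2 fold change of 0.28 (SE 0.10, limma adjusted p = 0.0860), with a 95% interval from 1.04-fold to 1.42-fold on the FPKM + 1 scale, which understates the change of so low a gene. The exact two-sided permutation test of FPKM over all assignments of the labels gave p = 0.0317, where the smallest possible is 0.00794. Its adjusted p was 0.0238 after the trend with transcript length was removed, 0.0374 after quantile normalization and 0.0393 without labelled knockdown 5. These were the only calls. Lgr5 was called in 1 of 10 fits that left out 1 library, with adjusted p up to 0.177. In the other settings that tested it, it was called in 2 of 9, with adjusted p up to 0.188.

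Among the other receptors, Lrp6, the Wnt co-receptor gene, fell. It held 4.18 to 5.24 FPKM in the control libraries and 3.23 to 3.87 FPKM in the labelled knockdown libraries, with no overlap (log2 fold change -0.29, SE 0.07, limma adjusted p = 0.0250). Lrp6 was called in 6 of 10 fits that left out 1 library, and not after the length trend was removed (adjusted p = 0.123) or with a replicate block (0.0557). It was the 1 called gene of 11 tested receptors, with 0 higher, a share near the 9.65% of all tested genes that were lower. The count of lower receptor genes was 4 with array weights. It was 2 with a minimum of 1 FPKM, median-of-ratios scaling, quantile normalization or without control 5 or labelled knockdown 4. With the block, after the length trend was removed, or without control 2, control 3 or labelled knockdown 5, it was 0. The list had a median log2 fold change of -0.16, and 10 of the 11 values were below 0, Lgr5 being the exception; after the length trend was removed the median was -0.048, with 7 of 11 below 0. Fzd1, a Frizzled receptor gene, averaged 3.53 ± 0.633 and 2.54 ± 0.417 FPKM (adjusted p = 0.0536), and was called lower in 4 of the other settings (adjusted p from 0.0260 with array weights to 0.0492 with median-of-ratios scaling) and without control 5 (0.0316) or labelled knockdown 4 (0.0351).

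Rnf43 and Znrf3, the ligases that clear Frizzled from the membrane, did not pass the test. Rnf43 held 4.76, 3.40, 3.95, 3.24 and 2.11 FPKM in control libraries 1 to 5 and 3.03, 3.96, 3.88, 2.62 and 2.13 FPKM in labelled knockdown libraries 1 to 5. Replicate 5 was the lowest of its group in both. Its log2 fold change was -0.12 (SE 0.17, limma adjusted p = 0.669, 95% interval 0.712-fold to 1.20-fold). Znrf3 held 1.91, 2.09, 1.59, 1.47 and 1.35 FPKM in control libraries 1 to 5, and 2.31, 1.94, 2.16, 2.24 and 1.47 FPKM in labelled knockdown libraries 1 to 5. For this gene 4 of 5 labelled knockdown libraries were above the control mean (log2 fold change 0.17, SE 0.11, adjusted p = 0.277, 95% interval 0.960-fold to 1.32-fold). With the length trend removed its adjusted p was 0.0512. Of the 6 tested inhibitors that act at the cell surface, Rnf43 and Znrf3 among them, 1 was lower and 0 were higher. Over all tested genes, 9.65% were lower and 7.13% higher. The 1 lower inhibitor gene was Frzb, which encodes a secreted Wnt antagonist and fell from 2.69 ± 0.122 to 1.77 ± 0.473 FPKM (adjusted p = 0.0247). The Frzb call was lost without control 2 (0.0580), without labelled knockdown 2 (0.0507) and without a filter on low values (0.0626). Dkk3, another secreted protein of the list, averaged 2.78 ± 0.789 and 1.88 ± 0.640 FPKM (0.151).

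Axin2, the scaffold of the complex that marks beta-catenin for degradation and a common readout of the pathway, showed the smallest difference of the 10. It held 3.10, 2.60, 2.70, 3.17 and 1.51 FPKM in control libraries 1 to 5 and 2.79, 2.92, 2.04, 2.83 and 1.94 FPKM in labelled knockdown libraries 1 to 5. Control 5 was the lowest of all, and the other controls reached from within to just above the labelled knockdown range. The difference on the log2 scale was -0.03 (SE 0.14, limma adjusted p = 0.890), with a 95% interval from 0.785-fold to 1.22-fold, and its sign turned when the length trend was removed (0.07).

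Some other genes of that cytoplasmic machinery were called, in both directions. Ctnnb1, which encodes beta-catenin, held 52.0, 55.7, 46.6, 51.8 and 53.0 FPKM in control libraries 1 to 5 and 33.5, 34.9, 37.2, 46.3 and 34.7 FPKM in labelled knockdown libraries 1 to 5. The groups did not overlap, although labelled knockdown 4 came close to control 3. On the log2 scale Ctnnb1 fell by 0.47 (SE 0.09, limma adjusted p = 0.0122), and it was called lower in all 10 fits that left out 1 library. Csnk1a1, the casein kinase that primes beta-catenin for degradation, fell from 14.4 ± 1.44 to 10.9 ± 1.39 FPKM (adjusted p = 0.0226), with an adjusted p of 0.0625 after the length trend was removed. Dvl1 and Dvl2, which relay the signal from Frizzled, rose, from 19.2 ± 1.83 to 25.4 ± 3.66 FPKM and from 1.65 ± 0.184 to 2.33 ± 0.274 FPKM (adjusted p = 0.0290 and 0.0213). The calls of both were lost without control 2 (0.0613 and 0.0553), that of Dvl1 also without control 4 (0.0609) or labelled knockdown 2 (0.0511), and that of Dvl2 without control 3 (0.0534). Without a filter on low values the Dvl1 call was lost too (0.0623). In all, 2 of 15 tested genes of this list were higher and 2 lower, beside 7.13% and 9.65% of all tested genes. The count of higher genes was 0 without control 2. That of lower genes was 1 after the length trend was removed and 3 with array weights or without labelled knockdown 4.

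**Figure D2:**
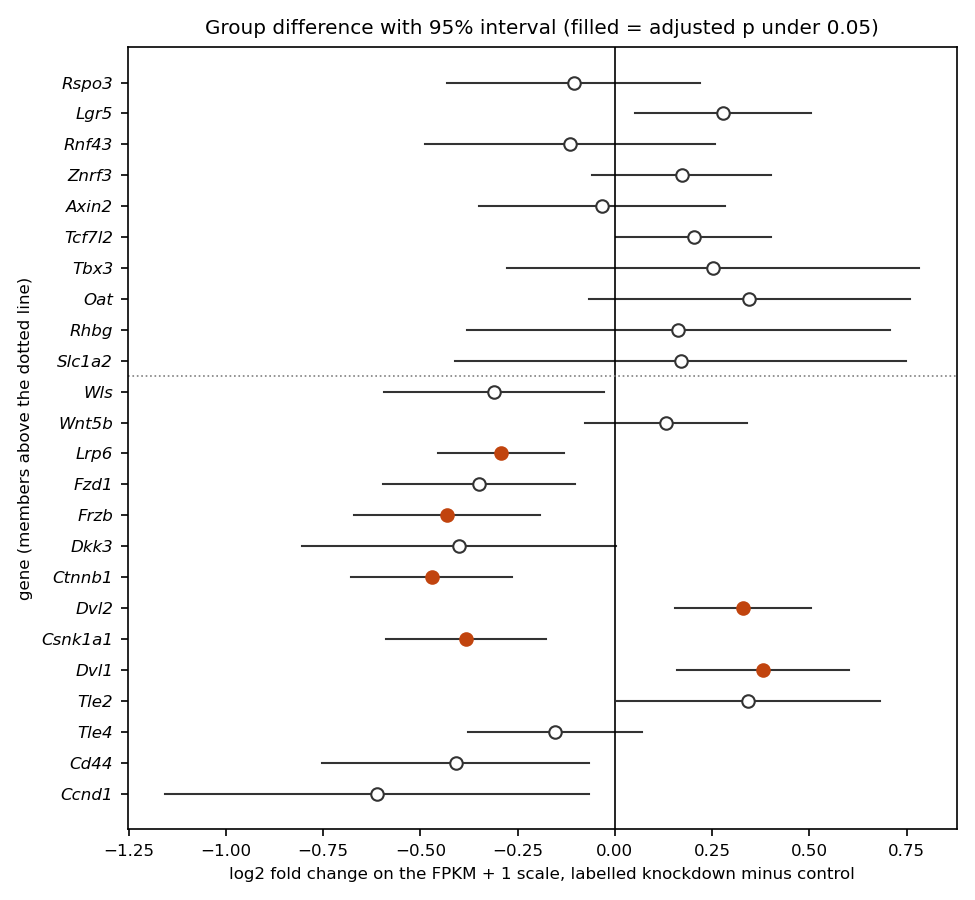
Log2 fold change on the FPKM + 1 scale, labelled knockdown minus control, with its 95% interval from the limma fit, for the 10 members above the dotted line and for other genes of the pathway below it. Filled points passed an adjusted p of 0.05; none of the members did, while Lrp6, Frzb, Ctnnb1 and Csnk1a1 were lower and Dvl1 and Dvl2 higher.

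Tcf7l2, the main T-cell factor gene of hepatocytes, held 0.871, 1.08, 1.03, 1.01 and 1.45 FPKM in control libraries 1 to 5 and 1.22, 1.71, 1.35, 1.49 and 1.22 FPKM in labelled knockdown libraries 1 to 5. All 5 labelled knockdown libraries were above the control mean, and control 5, here the highest control, lay inside their range. Its log2 fold change was 0.20 (SE 0.09, limma adjusted p = 0.143), with a 95% interval from 1.003-fold to 1.32-fold on the FPKM + 1 scale. The ratio of its mean FPKM was 1.29, and 1.40 without control 5. With array weights, which gave control 5 the least weight, the adjusted p was 0.0384, and without control 5 it was 0.0562. None of the 11 tested genes of the T-cell factor complex passed in either direction. Tle2 and Tle4, co-repressor genes, had adjusted p of 0.143 and 0.314.

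Tbx3, a transcription factor gene and target of the pathway, varied most among the members, with a coefficient of variation of 37.7% over the 10 libraries. It held 3.46, 1.71, 3.53, 3.16 and 1.002 FPKM in control libraries 1 to 5 and 3.01, 4.67, 3.67, 2.18 and 2.24 FPKM in labelled knockdown libraries 1 to 5. Controls 2 and 5 were low, and the other libraries of both groups overlapped. Between the groups the log2 fold change was 0.25 (SE 0.24, limma adjusted p = 0.493, 95% interval 0.825-fold to 1.72-fold), and 0.06 without control 5. Of 13 tested feedback targets, 5 of which are members described here, none passed in either direction. Cd44 and Ccnd1, targets that also answer to other signals, averaged 4.80 ± 0.921 against 3.40 ± 0.926 FPKM (adjusted p = 0.0924) and 43.8 ± 7.94 against 29.9 ± 12.4 FPKM (0.109). Cd44 was called lower with a replicate block (0.0313), with array weights (0.0244) and without control 5 (0.0407) or labelled knockdown 4 (0.0344). Ccnd1 was called lower with array weights (0.0248) and without labelled knockdown 4 (0.0445). Notum, Sp5 and Nkd1, further feedback targets taken up after their values were seen, had log2 fold changes of 0.39, 0.34 and 0.17 (adjusted p = 0.293, 0.214 and 0.365). Control 5 was the lowest of all libraries for each of these genes, and far below the other controls for Notum (4.19 against 10.7 to 12.5 FPKM). Without control 5 the log2 fold changes of Notum, Sp5 and Nkd1 were 0.14, 0.16 and 0.07.

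Oat encodes ornithine aminotransferase, which hepatocytes next to the central vein use in amino acid breakdown. It held 305, 274, 307, 426 and 186 FPKM in control libraries 1 to 5 and 417, 338, 388, 412 and 299 FPKM in labelled knockdown libraries 1 to 5. Controls 1, 2, 3 and 5 lay near or below the lowest labelled knockdown library, and control 4 above the highest. Oat thus had a log2 fold change of 0.35 (SE 0.19, limma adjusted p = 0.222, 95% interval 0.955-fold to 1.69-fold), or 0.19 without control 5.

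Rhbg, an ammonium transporter gene of the same cells, held 18.2, 17.1, 15.2, 22.0 and 6.59 FPKM in control libraries 1 to 5 and 15.2, 14.4, 19.1, 20.2 and 15.2 FPKM in labelled knockdown libraries 1 to 5. Slc1a2, a glutamate transporter gene, held 9.67, 10.5, 8.31, 9.96 and 3.32 FPKM in control libraries 1 to 5 and 8.47, 12.2, 10.4, 9.15 and 5.68 FPKM in labelled knockdown libraries 1 to 5. In both genes control 5 was the lowest library, followed for Slc1a2 by labelled knockdown 5, and the other libraries overlapped. Log2 fold changes were 0.16 (SE 0.25, limma adjusted p = 0.681, 95% interval 0.768-fold to 1.63-fold) for Rhbg and 0.17 (SE 0.26, adjusted p = 0.689, 95% interval 0.753-fold to 1.68-fold) for Slc1a2. Without control 5 both turned sign, to -0.10 and -0.09.

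Promoters are shown for Axin2, Oat and Slc1a2, a pathway target and a pair of pericentral genes that were all lowest in control 5. Each is the 250 bases before the gene's start, 5′ to 3′ on the gene's strand, from RefSeq on GRCm38.p6; only a human build is named for the expression values, so the mouse build behind them is not known. Capitals mark ATCAAAG or its reverse CTTTGAT, a form of the T-cell factor motif, searched on both strands. Windows are chr2:102706188-102706437 (plus strand) for Slc1a2, chr11:108920099-108920348 (plus strand) for Axin2 and chr7:132576399-132576648 (minus strand) for Oat.
Slc1a2: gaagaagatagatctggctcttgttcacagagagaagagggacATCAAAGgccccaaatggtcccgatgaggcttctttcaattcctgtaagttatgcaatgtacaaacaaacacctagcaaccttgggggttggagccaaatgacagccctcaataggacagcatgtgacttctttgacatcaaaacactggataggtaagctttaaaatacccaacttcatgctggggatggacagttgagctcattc
Axin2: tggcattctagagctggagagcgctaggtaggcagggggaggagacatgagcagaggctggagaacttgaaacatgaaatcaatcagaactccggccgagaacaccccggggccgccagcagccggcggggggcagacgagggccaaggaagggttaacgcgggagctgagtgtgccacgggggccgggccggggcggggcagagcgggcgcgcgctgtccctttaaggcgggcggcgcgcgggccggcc
Oat: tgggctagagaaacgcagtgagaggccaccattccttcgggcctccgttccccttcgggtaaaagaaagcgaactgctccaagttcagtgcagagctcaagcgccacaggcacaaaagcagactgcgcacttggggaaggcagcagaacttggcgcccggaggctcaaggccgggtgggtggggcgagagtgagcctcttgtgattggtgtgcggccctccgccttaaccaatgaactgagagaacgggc
The match in the Slc1a2 window began 207 bases before the start, and the other 2 windows held none. Of 32851 such windows in the table, 3.21% held this motif. Among the members 5 had an entry, with 7 windows in all, and 1 of the 7 held it. Base composition differed, with 69.2% G or C in the Axin2 window, 60.0% in that of Oat and 44.8% in that of Slc1a2. A match describes the letters only, and a window without one says nothing about binding of the factor.

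Control 5 was the lowest control library for 8 of the 10 members, the exceptions being Lgr5 and Tcf7l2, and the lowest of all 10 libraries for 7; it was the lowest control for 29.5% of all tested genes. Of 27 genes in the pericentral list, it was lowest for 20, but only 21 of the 27 are not members, so the counts share genes. Glul, which encodes glutamine synthetase and marks the innermost ring of hepatocytes, stood at 94.5 FPKM there and at 266 to 371 FPKM in the other controls. Cyp1a2, a pericentral cytochrome gene, stood at 52.5 FPKM there against 212 to 265 FPKM. In the opposite direction, control 5 was the highest control for 11 of 18 genes in the periportal list and for 27.8% of all tested genes. Hal, the histidine-degrading enzyme gene of periportal cells, stood at 85.3 FPKM there against 20.7 to 35.0 FPKM. Summed hepatocyte markers of control 5 (38689 FPKM) lay within the range of the other controls (34792 to 38968 FPKM). Labelled knockdown 5 was the lowest of its group for 7 of the 10 members, where 34.5% of all tested genes had their lowest value in that library.

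**Figure D3:**
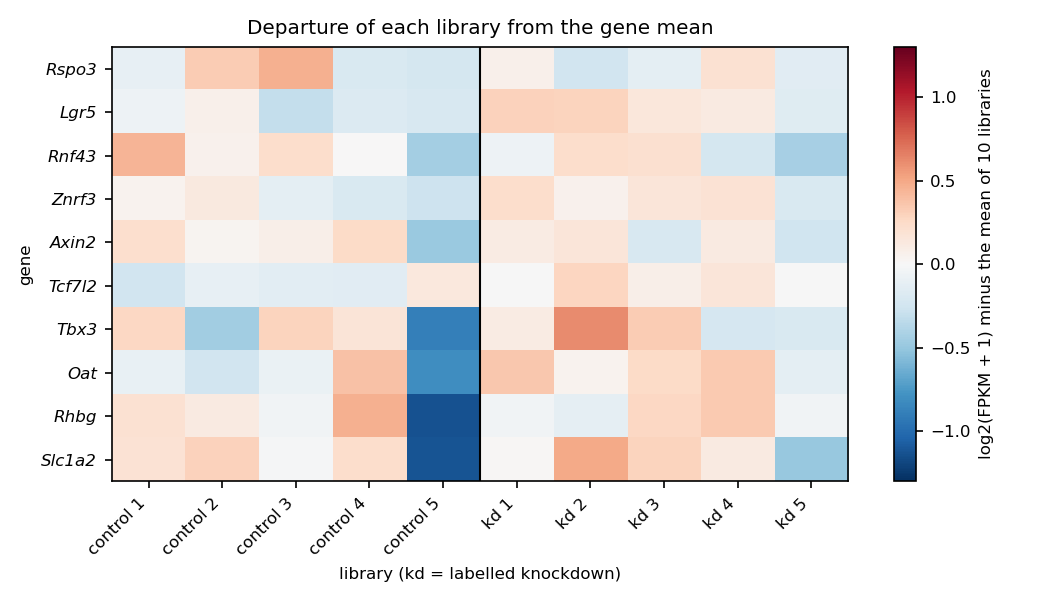
Departure of each library from the mean of the 10 libraries, on the log2(FPKM + 1) scale, for each member (rows). Columns are the libraries, with the labelled knockdown group right of the line. Control 5 is blue for 9 of the 10 genes, and darkest for Rhbg and Slc1a2.

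With group means removed, 36 of the 45 pairs of members had a positive Pearson r over the 10 libraries, with a median of 0.45, and 0.22 without control 5. No pair passed Benjamini-Hochberg adjustment in exact two-sided permutation within groups, and 8 had an unadjusted p under 0.05. Rnf43 and Tbx3 were closest, with r = 0.87 (rho = 0.78, exact permutation p = 0.00201 and 0.0153, adjusted p = 0.0906 and 0.345) and r = 0.77 without the 2 libraries farthest from the median. Oat and Rhbg were next by r, also 0.87 (rho = 0.58, exact permutation p = 0.0127 and 0.0935, adjusted p = 0.156 and 0.537), with r = 0.47 without the 2 farthest libraries, on which it rests. Lgr5 and Znrf3 had the highest rho of the pairs, 0.88 (r = 0.79, exact permutation p = 0.00535 for rho and 0.0173 for r, adjusted p = 0.241 and 0.156), but r was 0.27 without the 2 farthest libraries. Of 11794 other tested genes with a symbol, those whose departures were most like those of Axin2 over the 10 libraries were Hdac5 (r = 0.97), Sin3b (0.95) and Kdm6b (0.95), and r stayed at 0.88 to 0.93 without the 2 farthest libraries. These 3 come from a ranking of all genes and carry no test; among the members, Slc1a2 ranked highest, at 166 (r = 0.83), but its r was -0.015 without the 2 farthest libraries.

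Among pericentral genes Nr1i3 alone passed the test. That gene, which encodes the nuclear receptor CAR, averaged 21.7 ± 7.92 FPKM in control and 51.6 ± 19.4 FPKM in labelled knockdown (adjusted p = 0.0208 by limma). It was the 1 gene of 27 that was called higher, with 0 called lower, beside 7.13% and 9.65% of all tested genes. Its call was lost without a filter on low values (0.0630). Of the 27, 21 had a log2 fold change above 0, with a median of 0.17, but without control 5 it was 12 of 27, with a median of -0.049. The list includes the members Oat, Rhbg, Slc1a2, Lgr5, Axin2 and Tbx3, and the median of its 21 other genes was 0.12 with all libraries. Glul (287 ± 116 against 375 ± 53.4 FPKM, adjusted p = 0.286), Cyp2e1 (2628 ± 696 against 3362 ± 798 FPKM, 0.267) and Cyp1a2 (194 ± 81.9 against 209 ± 30.5 FPKM, 0.634) did not pass. Without control 5 the log2 fold change went from 0.52 to 0.16 for Glul and from 0.37 to 0.19 for Cyp2e1, and that of Cyp1a2 turned to -0.14. Cpox, a heme synthesis gene, averaged 15.3 ± 1.63 and 13.2 ± 1.64 FPKM (0.185).

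Periportal genes were lower in part. Of 18 tested, 5 were lower and 0 higher, beside 9.65% and 7.13% of all tested genes. The list's median on the log2 scale was -0.41, beside -0.04 over all tested genes. Without control 5 the median was -0.26, with 6 lower and 1 higher, and without control 2 or labelled knockdown 3 the lower genes numbered 3. Cps1, the first enzyme of the urea cycle, held 385, 379, 375, 355 and 520 FPKM in control libraries 1 to 5 and 202, 249, 261, 229 and 282 FPKM in labelled knockdown libraries 1 to 5. The groups did not overlap (log2 fold change -0.71, SE 0.12, limma adjusted p = 0.00944). Ass1, a later enzyme of the cycle, fell from 628 ± 91.9 to 402 ± 37.8 FPKM (adjusted p = 0.00944), and Ctsc, a lysosomal protease gene, from 13.2 ± 1.37 to 8.03 ± 1.40 FPKM (0.00941). Cdh1, the E-cadherin gene, fell from 19.8 ± 4.72 to 10.8 ± 3.58 FPKM (0.0255). Its call was lost without control 2 (0.0557), without labelled knockdown 3 (0.0539) and without a filter on low values (0.0737). Sds, serine dehydratase, fell from 61.9 ± 20.3 to 34.8 ± 6.65 FPKM (0.0398), but was called in only 1 of the 10 fits that left out 1 library. It was called in 7 of the 10 other settings. Hal (38.9 ± 26.6 against 41.9 ± 8.85 FPKM, 0.576) and Cyp2f2 (244 ± 47.0 against 227 ± 44.2 FPKM, 0.698) did not pass, but Hal was called higher without control 5 (0.0480). The difference between the lists was not tested. Of 7 tested markers that all hepatocytes express, 2 were lower and 1 higher, and 3 had a log2 fold change above 0. Apob and Hnf4a fell, from 299 ± 26.1 to 205 ± 19.0 FPKM and from 86.5 ± 6.77 to 64.3 ± 2.37 FPKM (adjusted p = 0.00941 and 0.00944). Ttr, the transthyretin gene, rose by 0.40 on the log2 scale (adjusted p = 0.0268). Its call was lost with a replicate block, with quantile normalization, without a filter on low values and after the length trend was removed. It was also lost without control 1, 2 or 3 or labelled knockdown 2, 3 or 5.

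**Figure D4:**
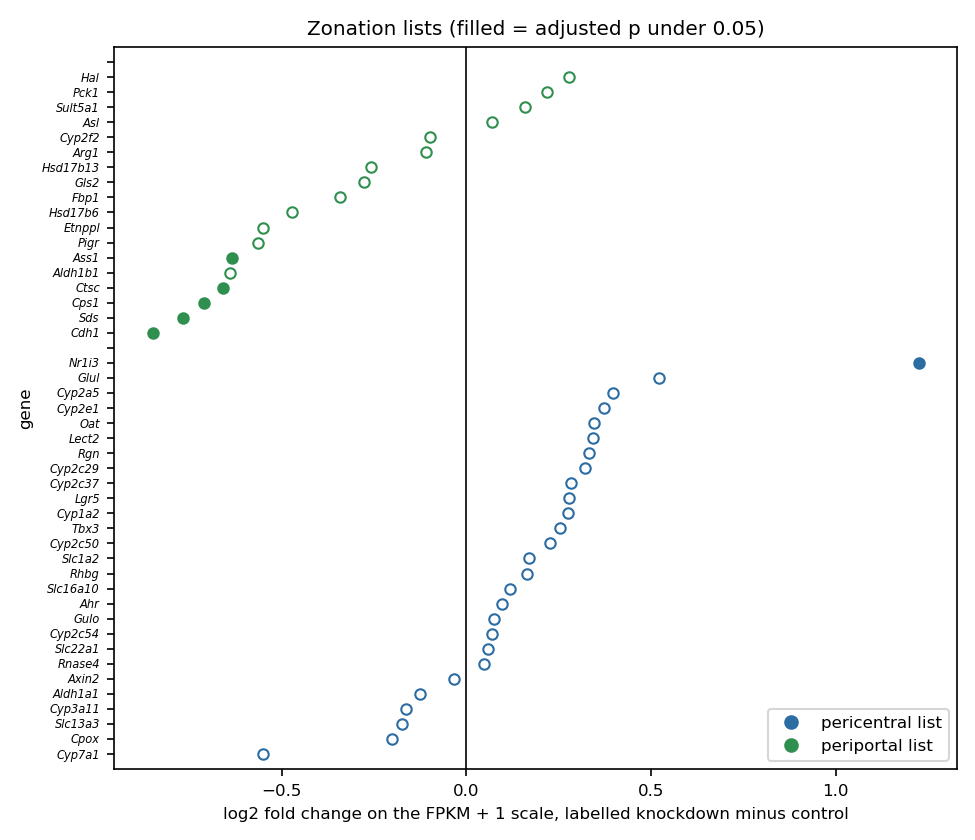
Log2 fold change on the FPKM + 1 scale, labelled knockdown minus control, of each tested gene of the pericentral (blue) and periportal (green) lists. Filled points passed an adjusted p of 0.05, which were Nr1i3 among 27 pericentral genes and Ctsc, Cps1, Ass1, Cdh1 and Sds among 18 periportal genes.

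Markers of other cells and of division were measured beside these genes. Of 11 tested macrophage markers 2 were lower and 0 higher, and of 7 cholangiocyte markers and 2 T, NK and B cell markers none passed. Over all tested genes, 9.65% were lower and 7.13% higher. Log2 fold changes were below 0 for 10 of the 11 macrophage markers (median -0.40) and 6 of the 7 cholangiocyte markers (median -0.33). The median over all tested genes was -0.04. Of 10 genes of dividing cells 8 were lower and 0 higher, among them Mki67 (2.39 ± 0.949 to 0.635 ± 0.349 FPKM, limma adjusted p = 0.0151). The macrophage count was 4 with a replicate block, with array weights, after the length trend was removed and without control 5 or labelled knockdown 4. It was 3 with a minimum of 1 FPKM or quantile normalization. The count for dividing cells was 4 of 10 without a filter on low values, 4 of 8 tested without control 3 and 5 of 8 without control 2 or 4. The part of these cells in the values of the 10 genes was not tested.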

How the data were processed

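Liver RNA of 10 mice was compared as 5 against 5 libraries, grouped by the sample titles. Strand-marked libraries were made from poly(A) RNA with dUTP, per the labels' protocols. StringTie 1.3.4d, HISAT2 2.0.4 and cutadapt 1.9 are named in the submitters' processing notes. A human build is named there too, while the identifiers are those of mouse genes, and the mouse build is not known. The deposited FPKM were made by the authors, as were the deposited fold ratio, its log2 value, and the p-value and q-value of a test not given in the sources used here. FPKM carries no counting interval, so the intervals given rest on the spread between the libraries, and the part of depth in that spread is unknown.

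Genes with at least 0.5 FPKM in at least 5 libraries (13471) were compared on log2(FPKM + 1) by limma 3.58.1 (R 4.3.3; mean-variance trend; two-sided), Benjamini-Hochberg over all tested genes, called at 0.05. The fit was tested on simulated data. The members and 17 gene lists were chosen with earlier results of these data known, so no p is adjusted over a list alone. Named genes were the members, the targeted gene, 6 zonation reference genes, up to 4 called genes of each pathway or zonation list (or the 2 with the smallest p), the 3 genes most like Axin2, and some named after their values were seen, which are the marker genes and the targets and ligands described as such. Transcript length was that of the longest transcript in GENCODE M21, for 97.9% of tested genes. Alternatives were pseudocounts, filters, scalings, weights, moderation, a replicate block, length trend removal, and leaving out each library. Same-numbered libraries were not pairs by the labels.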

Additional observations from a re-analysis of the deposited data

Results flagged for a closer look

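Within a group of 5, the outermost library was checked by its gap to the next value as a share of the group's range, for 102 groups of FPKM values of named genes; 8 groups had a library far from the rest, where chance gives about 1 in 20. The groups come from the same 10 libraries and are not independent. Some genes, Notum and Nkd1 among them, were named after their values were seen, so this count is not a test. Control 5 accounted for 6 of the 8 groups. It was low for Cyp1a2 (52.5 FPKM, other controls from 212), Notum (4.19, from 10.7) and Nkd1 (0.634, from 1.25), and high for Csnk1a1 (17.0 FPKM, others up to 14.1), Cps1 (520, up to 385) and Hal (85.3, up to 35.0). Labelled knockdown 5 was low for Cyp1a2 (156 FPKM, others from 212), and labelled knockdown 1 was high for Dvl1 (31.7 FPKM, others up to 25.2). None of the 10 members had a library this far from the rest of its group.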

How the results depend on the processing

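Of the 10 members, 0 were called in the main fit; 1 was called higher with array weights (Tcf7l2, adjusted p = 0.0384), after the length trend was removed (Lgr5, 0.0238), after quantile normalization (Lgr5, 0.0374), and in 1 of the 10 fits without 1 library, where the count ranged from 0 to 1. None was called lower in any alternative. Over all genes, 511 were higher and 682 lower without a filter, 2047 lower with array weights and 720 lower after the length trend was removed. Without 1 library, higher genes numbered 440 to 954 and lower genes 533 to 1733. The split of 960 higher and 1300 lower became 1212 and 1020 with median-of-ratios scaling and 894 and 720 without the length trend. The log2 fold change of Axin2 turned to 0.067 without the length trend and to 0.010 with quantile normalization, and ranged from -0.160 to 0.026 without 1 library; the cause was not tested. That of Kdm6b turned to 0.11, 0.028 and 0.030 without the length trend, with median-of-ratios scaling and with quantile normalization, and that of Hdac5 to -0.021 with array weights. Without 1 library, the lowest and highest values were -0.101 and 0.299 for Rhbg, -0.090 and 0.312 for Slc1a2, -0.144 and 0.435 for Cyp1a2, -0.093 and 0.264 for Lgals3, and -0.089 and 0.052 for Kdm6b. Among the members' 99 values under other settings 94 kept direction and side of the threshold, and 93 of 100 without 1 library did.

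Same-numbered libraries correlated by -0.01 to 0.11 in their departures from group means, and 1 control and 2 labelled knockdown libraries correlated best with their own number. With a replicate block, 769 genes were higher and 986 lower, and 0 members were called; Lgr5 had an adjusted p of 0.0700. No pair of members passed without any 1 library or without the 2 farthest, the only alternatives run for pairs. FPKM gives no counts, so what depth limits for a gene as low as Lgr5 could not be computed.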
